A study of Mus musculus with 15 samples.

Results

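The glutathione S-transferase genes of the mouse liver were examined here in 5 groups of ovariectomized mice, with Gsta1 as the gene of main interest. Genes were taken as members where the symbol started with Gsta, Gstm, Gstp, Gstt, Gsto, Gstk, Gstz or Mgst, which gave 6 of the 2545 genes in the deposited table. The 6 genes were Gsta1 and Gsta2 of the alpha class, Gstp1 and Gstp2 of the pi class, Gsto2 of the omega class and the microsomal Mgst2. RefSeq lists 25 protein-coding genes with such symbols, and none of the 7 Gstm and 4 Gstt genes, Gstk1 or Gstz1 has a row in the table used here.

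Glutathione S-transferases join the tripeptide glutathione to electrophilic compounds, which makes them more soluble and ready for export from the cell. Liver holds large amounts of the cytosolic enzymes, and several of their genes are known to respond to foreign compounds through the transcription factors NRF2, CAR, PXR and AHR. The microsomal members are a separate family of membrane enzymes, some of which act on leukotrienes.

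The study asked how estrogens and a selective estrogen receptor modulator change the liver of female C57BL/6J mice without ovaries on a high-fat diet. Mice were put on a diet with 45% of its calories from fat at 8 weeks of age, were ovariectomized at 10 weeks and were then treated for 6 weeks. Of the 5 groups of 3 mice, the controls had vehicle (Veh), a mix of DMSO, ethanol and saline. E2 mice had slow-release pellets of estradiol. The study's methods give a daily 5 μg per kg for E2 and also a pellet content, and do not say how these relate, so the delivered dose is uncertain. CE mice had conjugated estrogens at a daily 2.5 mg per kg, and BZA mice had the receptor modulator bazedoxifene at a daily 3 mg per kg. The CE+BZA mice had both of these agents, with doses that are not stated apart from those of the single treatments. The study's methods name osmotic minipumps for the conjugated estrogens, and do not state the form of delivery for Veh or BZA. E2, given as pellets, thus differed from CE in the form of delivery as well as the agent. All 5 groups, the Veh controls included, shared the ovariectomy and the diet, and the mice were separate animals, named here by the replicate number of their label. Polyadenylated RNA of whole liver was sequenced, so fewer cells of a type and less RNA per cell cannot be told apart.

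Each log2 expression value is set against its gene's own median across the 15 mice, so levels can be compared between mice but not between genes. In each of the 2545 genes the mean of 1 or more treatments was over 2-fold away from that of Veh. The genes thus look chosen by fold change, and a transferase without a row was not analysed here. In 41.1% of the genes at least 2 mice shared the lowest value of the gene, which is called the floor below. The table holds no read totals, so the depth behind a value is unknown. BZA mouse 3 stood apart from the other 14 mice, with a mean log2 value of 6.29 over 6 markers of exocrine pancreas and 4.04 over 7 markers of adipocytes. None of the 10 hepatocyte markers looked for has a row, so the tissue could not be checked on them.

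Gsta1 lies on the plus strand of chromosome 9 (GRCm38 chr9:78230656-78242684) among near-identical copies. The copies in the same stretch are Gm3776 (chr9:78257129-78269166), Gm10639 (chr9:78289923-78305525) and Gsta2 on the minus strand (chr9:78331018-78355788). All 4 are annotated as protein-coding by GENCODE. The coding sequence of Gsta1 differed from that of Gm3776 at 2 of 672 aligned bases, from Gsta2 at 14 of 669 and from Gm10639 at 18 of 669. The fifth coding exon, which among the first 5 holds the most differences between Gsta1, Gsta2 and Gm10639 (7 of its 132 bases), is shown because a read from it can tell these 3 genes apart. Capitals mark the bases that are not the same in all 3. The exon is at chr9:78241527-78241658 in Gsta1, chr9:78332087-78332218 in Gsta2 and chr9:78304372-78304503 in Gm10639, each written 5′ to 3′ on the strand of its gene.
Gsta1: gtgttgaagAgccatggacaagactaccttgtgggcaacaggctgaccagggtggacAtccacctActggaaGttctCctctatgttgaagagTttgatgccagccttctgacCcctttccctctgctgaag
Gsta2: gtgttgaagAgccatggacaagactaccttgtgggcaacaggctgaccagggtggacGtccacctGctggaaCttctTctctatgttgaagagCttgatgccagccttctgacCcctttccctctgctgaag
Gm10639: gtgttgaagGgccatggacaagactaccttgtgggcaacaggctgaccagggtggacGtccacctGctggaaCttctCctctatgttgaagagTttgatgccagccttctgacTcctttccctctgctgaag

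Gstp1 (chr19:4035407-4037985) and Gstp2 (chr19:4040285-4046023) lie side by side on the minus strand of chromosome 19. Their coding sequences differed at 12 of 633 bases. The fifth coding exon of GENCODE's gene models (chr19:4036688-4036791 in Gstp1, chr19:4040982-4041085 in Gstp2), with 6 differences in 104 bases, is shown for the same reason, with the differing bases in capitals.
Gstp1: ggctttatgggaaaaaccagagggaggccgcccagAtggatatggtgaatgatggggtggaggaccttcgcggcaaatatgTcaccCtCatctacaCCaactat
Gstp2: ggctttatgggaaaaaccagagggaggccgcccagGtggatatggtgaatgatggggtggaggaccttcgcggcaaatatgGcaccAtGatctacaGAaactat

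The likeness of the copies bears on the values. Of the 101-base windows of the Gsta1 transcript, 81.7% occur unchanged in a transcript of Gm3776, Gsta2 or Gm10639, and the share was 34.8% for Gsta2, 52.6% for Gstp1 and 63.3% for Gstp2. No such window was found for Gsto2 (chr19:47865534-47886324) or Mgst2 (chr3:51660360-51682677). How reads that match several copies were divided is not given in the sources used here, and Gm3776 has no row in the table. The Gsta1 row and transcripts of Gm3776 therefore cannot be told apart, and the rows of Gsta2, Gstp1 and Gstp2 are uncertain in the same way.

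Gsta1, an alpha-class transferase of hepatocytes, was lower than Veh in all 4 treatments, and the difference passed the test with E2 and with CE. In the Veh mice Gsta1 was at 1.96 (mouse 1), 1.33 (mouse 4) and 2.53 (mouse 7). The E2 mice had the lowest mean of any group, with values of −1.06, −1.05 and −1.29 in mice 3, 4 and 5. The CE mice were at −1.05, −0.79 and 0.00 in mice 3, 6 and 7. All 6 mice given an estrogen without BZA were thus at or below the median of the 15 mice, and no Veh mouse was. In the BZA mice the values were 0.96, 0.62 and −0.17 in mice 1, 3 and 4. The CE+BZA mice were at 0.07, −0.27 and 0.24 in mice 1, 2 and 3. The lowest Veh mouse (1.33) was above the highest treated mouse (0.96), and 2.32% of all 2545 genes had all 12 treated mice below all 3 Veh mice.

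**Figure D1:**
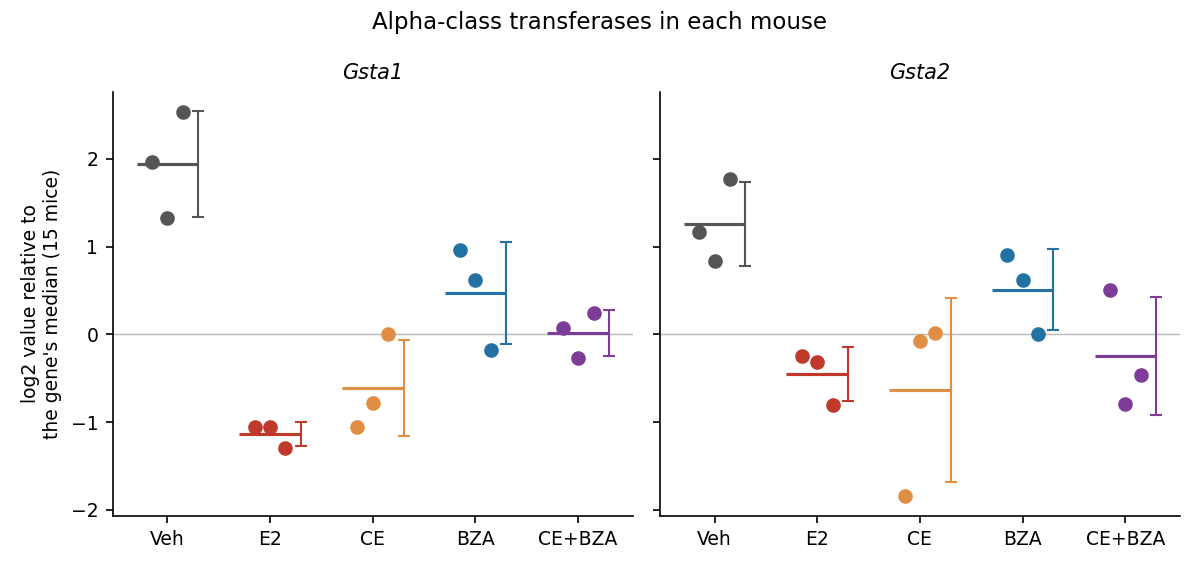
Log2 values of Gsta1 (left) and Gsta2 (right) in each of the 15 mice, relative to the median of the gene, by group. Points are mice, horizontal lines are group means and bars show ± SD (n = 3); for Gsta1 the 3 Veh mice, between 1.33 and 2.53, sit above all 12 treated mice.

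The Veh mean of Gsta1 was 1.94 ± 0.60 (SD, n = 3). Means were −1.13 ± 0.14 for the E2 mice, −0.61 ± 0.55 for the CE mice, 0.47 ± 0.58 for the BZA mice and 0.01 ± 0.26 for the CE+BZA mice. The limma model over all 15 mice and 2545 genes gave a difference from Veh of −3.08 on the log2 scale with E2 (SE 0.49, FDR 0.00754 by limma), so that E2 mice had 11.8% of the Veh level. With CE the difference was −2.56 (SE 0.49, FDR 0.0462 by limma), or 17.0% of the Veh level. A gene was counted as passing where it changed over 2-fold with a Benjamini-Hochberg FDR under 0.05 across the 2545 genes. In both comparisons, 0.118% of all genes passed with a lower level, and Gsta1 was the single member that did. The 4 comparisons share the same 3 Veh mice and are not independent of each other.

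BZA and CE+BZA mice were also below Veh, by differences that did not pass over all genes. The difference was −1.47 with BZA (95% interval −2.51 to −0.44, unadjusted p = 0.00798 and FDR 0.236 by limma) and −1.93 with CE+BZA (−2.96 to −0.89, unadjusted p = 0.00109 and FDR 0.108 by limma). No gene passed with a lower level with BZA (0%), and 0.0393% did with CE+BZA. For the 4 treatments together, Gsta1 was −2.26 from Veh on the log2 scale (SE 0.39, FDR 0.0180 by limma), where 0.196% of all genes passed with a lower level. All genes in the table were over 2-fold from Veh in some treatment, so p-values against Veh are those of genes that look selected on this contrast.

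In fits of only the 2 groups compared, Gsta1 passed with neither E2 nor CE (FDR 0.103 for E2 and 0.142 for CE by limma). With all groups, the call for E2 was lost without Veh mouse 1 (−3.07, FDR 0.0545 by limma) or E2 mouse 5 (−3.00, FDR 0.0549 by limma). The call for CE held in 4 of the 15 fits that left out 1 mouse, those without CE mouse 7, BZA mouse 1, BZA mouse 3 or BZA mouse 4. Without any other mouse it was lost, at an FDR up to 0.163 (without Veh mouse 1), and the difference stayed between −2.86 and −2.26 in all 15. The call for the 4 treatments together was lost without Veh mouse 1, 4 or 7, at −2.25, −2.56 and −1.96 (FDR 0.118, 0.0822 and 0.0994 by limma). Without BZA mouse 3, the library with pancreas and adipocyte markers, the BZA difference was −1.55.

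From high to low the group means of Gsta1 ran Veh, BZA, CE+BZA, CE and E2. Neighbours among the treatments did not differ beyond their spread. BZA and CE+BZA differed by 0.45 (95% interval of CE+BZA minus BZA −1.49 to 0.58, FDR 0.793 by limma). CE+BZA was 0.63 above CE (−0.40 to 1.66, FDR 0.573 by limma), and E2 was −0.52 from CE (−1.55 to 0.51, FDR 0.767 by limma). The widest gap between treatments was E2 minus BZA, at −1.60 (−2.64 to −0.57, unadjusted p = 0.00453 and FDR 0.215 by limma). Over the 6 members and the 6 pairs of treatments, 0 of 36 tests passed and 5 had an unadjusted p under 0.05 by limma. Over all genes and the same 6 pairs, 0.0851% passed and 11.4% had an unadjusted p under 0.05.

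The 6 mice on E2 or CE averaged −0.87 ± 0.46 for Gsta1, and the 6 mice on BZA or CE+BZA averaged 0.24 ± 0.47 (SD, n = 6). The difference of −1.12 had an exact two-sided permutation p = 0.00649 over 924 arrangements, and in limma an SE of 0.35 and an FDR of 0.154. The permutation pooled mice of different treatments in each set of 6, so its p does not measure the spread between mice of a treatment alone. In this comparison 0.668% of all genes passed. The departure of CE+BZA from the sum of the separate CE and BZA differences was estimated at 2.10 (95% interval 0.64 to 3.57, unadjusted p = 0.00753 and FDR 0.257 by limma), and it did not pass. Departures from additivity passed in 0.118% of all genes. The estimate includes the Veh mean, and all genes of the table were over 2-fold from Veh in some treatment. Its interval and p-value are therefore also those of a gene from a set that looks selected against Veh.

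Gsta2, the other alpha-class gene in the table, was also highest in Veh, with means of the treatments from BZA down through CE+BZA and E2 to CE. Its values in the Veh mice 1, 4 and 7 were 1.17, 0.83 and 1.78. The E2 mice were at −0.24, −0.31 and −0.80, and the CE mice at −1.85, −0.08 and 0.01. The values were 0.91, 0.62 and 0.00 in the BZA mice, and 0.50, −0.79 and −0.46 in the CE+BZA mice. Every E2, CE and CE+BZA mouse was below every Veh mouse, and BZA mouse 1 overlapped with Veh.

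The Gsta2 differences from Veh were −1.71 with E2 (SE 0.57, FDR 0.221 by limma), −1.90 with CE (FDR 0.175), −0.75 with BZA (FDR 0.406) and −1.51 with CE+BZA (FDR 0.207). None passed. The CE difference was −1.29 without CE mouse 3, the mouse with the lowest value. Both alpha genes were below all 3 Veh mice with E2, with CE and with CE+BZA, as were 12.4%, 12.3% and 13.7% of all genes, and Gsta1 alone was with BZA, as were 11.8%.

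Across the 15 mice Gsta1 and Gsta2 had a Pearson correlation of 0.86 (Spearman 0.86), and of 0.72 for the deviations from the group means. Gsta2 was closer still to Gm10639, the copy with no Gst symbol that was looked at after its values were seen, with a Pearson correlation of 0.97. Gm10639 was −1.75, −2.39, −0.83 and −1.76 from Veh with E2, CE, BZA and CE+BZA, and none of these passed by limma. In CE mouse 3 both Gsta2 (−1.85) and Gm10639 (−2.42) were at their lowest, while Gsta1 was at −1.05, close to the E2 mice. These correlations are descriptions over 15 mice that share their groups, and reads that match several copies enter them.

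**Figure D2:**
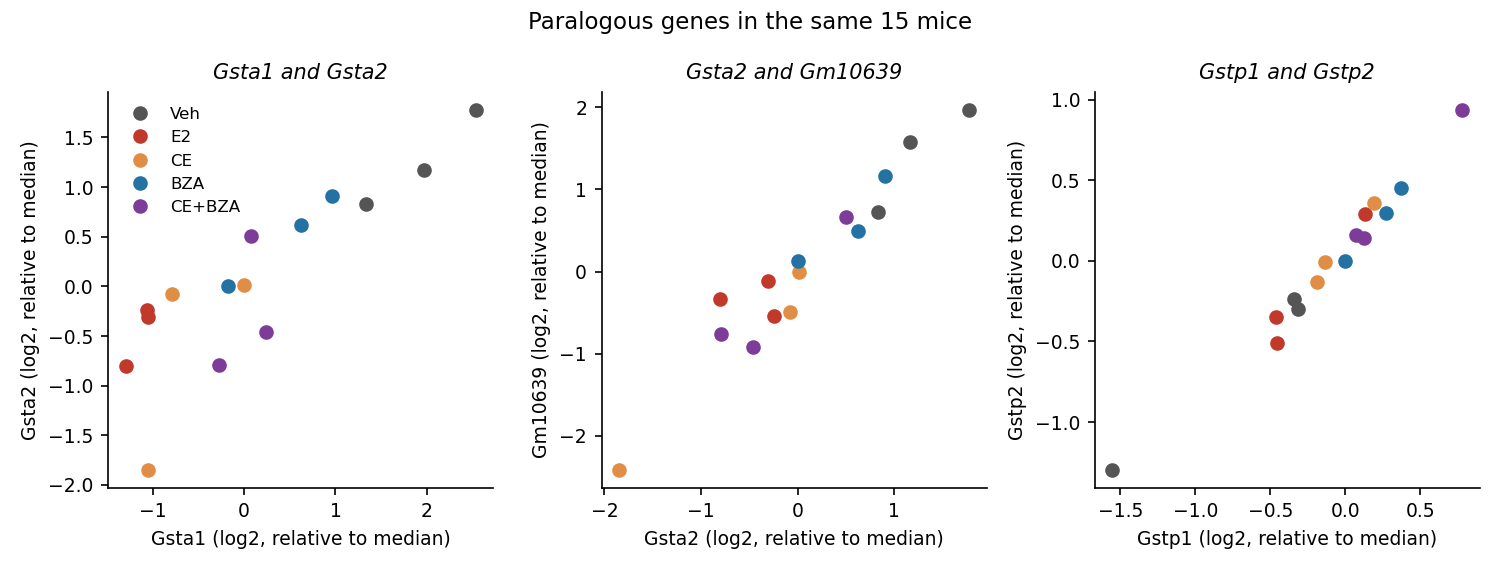
Log2 values of Gsta1 and Gsta2, of Gsta2 and Gm10639, and of Gstp1 and Gstp2 in the same 15 mice, each relative to the median of the gene, with points coloured by group. Values rise together in each panel, with Pearson correlations of 0.86, 0.97 and 0.99.

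The 250 bases before the start in the RefSeq promoter windows of Gsta1 (GRCm38.p6 chr9:78230419-78230668, plus strand) and of Gsta2 (chr9:78347146-78347395, minus strand) are shown because these members moved together. The annotations disagree on where Gsta2 starts. Its RefSeq span reaches chr9:78347192 and its GENCODE span chr9:78355788. The Gsta2 stretch shown thus lies partly inside the first span and wholly inside the second. The stretches aligned with 77.0% identity, and the capitals mark the longest run that is the same in both, of 29 bases.
Gsta1: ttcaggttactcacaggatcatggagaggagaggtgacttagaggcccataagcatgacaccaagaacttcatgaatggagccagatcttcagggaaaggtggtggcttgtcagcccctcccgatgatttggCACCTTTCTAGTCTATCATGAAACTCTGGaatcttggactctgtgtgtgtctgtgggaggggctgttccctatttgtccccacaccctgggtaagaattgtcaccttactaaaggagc
Gsta2: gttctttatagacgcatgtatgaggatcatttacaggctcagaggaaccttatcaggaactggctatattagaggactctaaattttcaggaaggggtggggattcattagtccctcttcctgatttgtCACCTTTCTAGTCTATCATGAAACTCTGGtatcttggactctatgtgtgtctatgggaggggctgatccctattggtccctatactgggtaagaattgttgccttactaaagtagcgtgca

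Matches to known response elements were counted in the RefSeq promoter windows of all 6 members, on both strands, from 250 bases before to 50 bases after each start. The core of the antioxidant response element, to which NRF2 binds, was searched only in the form TGACNNNGC. This form was in none of them and in 12.4% of 32851 windows of the genome. Other forms of the element were not searched, so the count does not show that these windows lack sites for NRF2. The whole estrogen response element was in none of them and in 0.0700% of all windows, and the shorter motif GGTCA, which makes up each arm of the whole element, was in Gstp2 and Gsto2 and in 40.5% of all windows. The core of the dioxin response element, GCGTG, to which AHR binds, was in Gsta1, Gsta2 and Gstp1 and in 32.4% of all windows. These are matches of letters in a short window and no measurement of binding.

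The pi-class genes Gstp1 and Gstp2, which encode cytosolic transferases known to be more abundant in male than in female mouse liver, were higher in treated mice than in Veh, by differences that did not pass. Gstp1 was at −0.34, −0.31 and −1.55 in Veh mice 1, 4 and 7, at 0.13, −0.46 and −0.46 in the E2 mice, and at −0.19, −0.13 and 0.19 in the CE mice. It was at 0.27, 0.00 and 0.37 in the BZA mice and at 0.12, 0.07 and 0.78 in the CE+BZA mice. The CE, BZA and CE+BZA mice were above all 3 Veh mice, and the E2 mice overlapped with them. Gstp2 followed Gstp1 with a Pearson correlation of 0.99 over the 15 mice, with a range from −1.30 in Veh mouse 7 to 0.94 in CE+BZA mouse 3, and its groups overlapped in the same way.

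For Gstp1 the differences from Veh were 0.47, 0.69, 0.95 and 1.06 with E2, CE, BZA and CE+BZA (SE 0.47), and for Gstp2 they were 0.42, 0.68, 0.86 and 1.02. The lowest FDR by limma was 0.229 for Gstp1 and 0.232 for Gstp2, both with CE+BZA. Veh mouse 7 weighed heavily in these values. Without it the CE+BZA difference was 0.65 for Gstp1 and 0.68 for Gstp2, and the E2 difference was 0.07 and 0.08. Veh mouse 7 was also the mouse with the highest Gsta1 and Gsta2.

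**Figure D3:**
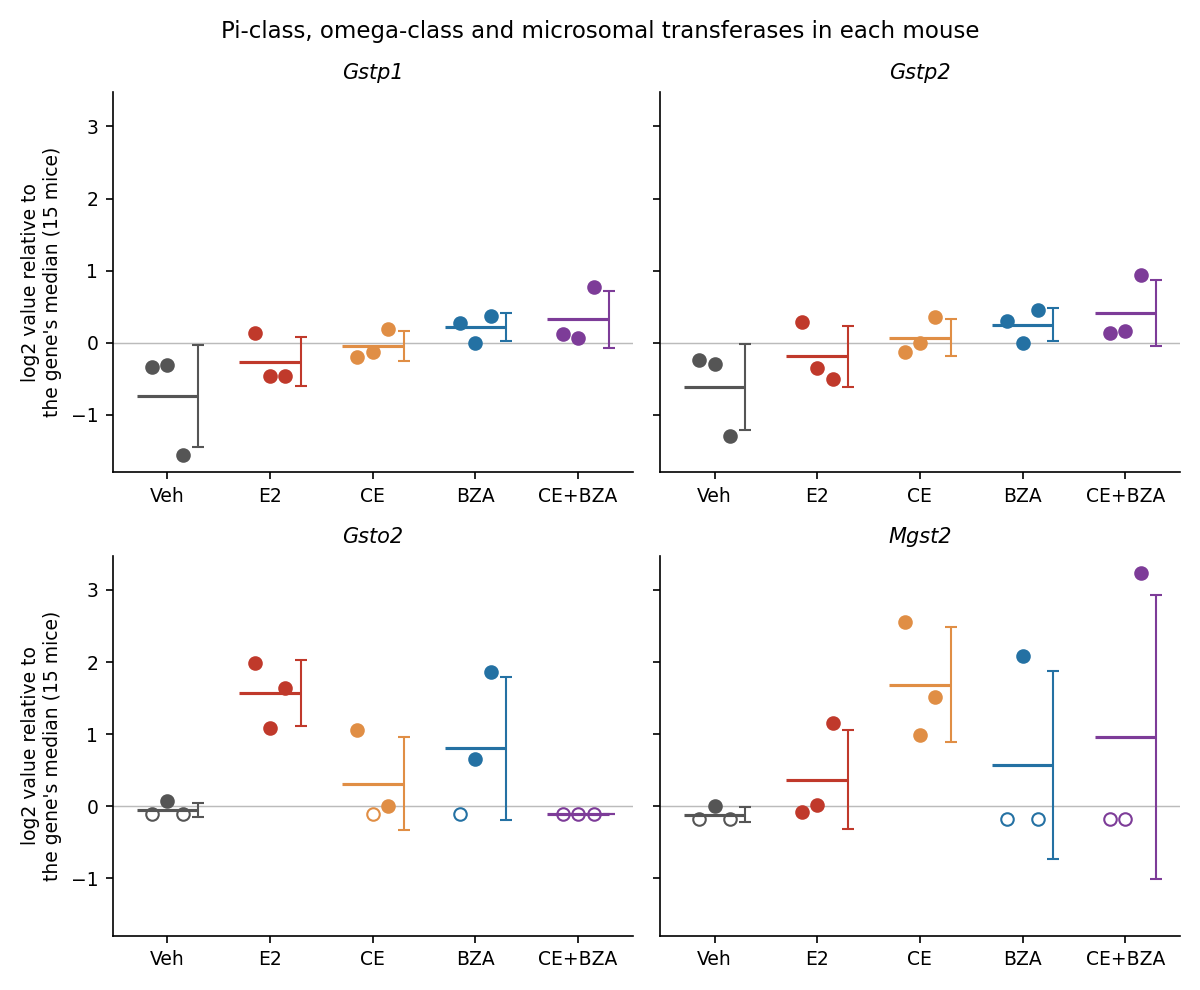
Log2 values of Gstp1, Gstp2, Gsto2 and Mgst2 in each of the 15 mice, relative to the median of the gene, by group. Filled points are mice above the floor, open points are mice at the floor (7 for Gsto2 and 6 for Mgst2), horizontal lines are group means and bars show ± SD (n = 3).

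Gsto2, an omega-class transferase with dehydroascorbate reductase activity, was above the floor in all 3 E2 mice and at the floor in all 3 CE+BZA mice. The E2 mice were at 1.99, 1.09 and 1.64. Veh mice 1 and 7 were at the floor of −0.11 and Veh mouse 4 was at 0.07. The values were 1.05, −0.11 and 0.00 in the CE mice and −0.11, 0.66 and 1.86 in the BZA mice. The E2 mice were thus above all Veh mice, while the CE and BZA mice overlapped with them.

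Gsto2 was 1.62 above Veh with E2 (SE 0.53, unadjusted p = 0.00724 and FDR 0.221 by limma), a difference that did not pass, with 2 of the 3 Veh mice at the floor. With CE it was 0.36 above Veh, a value that came from CE mouse 3 and was −0.00496 without it. With BZA the difference was 0.85, and 0.33 without BZA mouse 4. The CE+BZA mice and 2 Veh mice were all at the floor, where values have no order.

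Mgst2, a microsomal transferase that can make leukotriene C4, had its highest values in CE+BZA mouse 3, CE mouse 3 and BZA mouse 3. It was at 2.56, 0.99 and 1.52 in the CE mice, all above the Veh mice, which were at −0.17, 0.00 and −0.17. The E2 mice were at −0.08, 0.02 and 1.16. In BZA mouse 3 it was at 2.08 and in CE+BZA mouse 3 at 3.24, while the other 2 mice of each of these groups were at the floor of −0.17. Mgst2 was 1.80 above Veh with CE (SE 0.83, FDR 0.261 by limma), with 2 of 3 Veh mice at the floor. The difference was 0.69 with BZA and 1.08 with CE+BZA, and each was −0.058 without the 1 high mouse of its group, BZA mouse 3 and CE+BZA mouse 3.

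**Figure D4:**
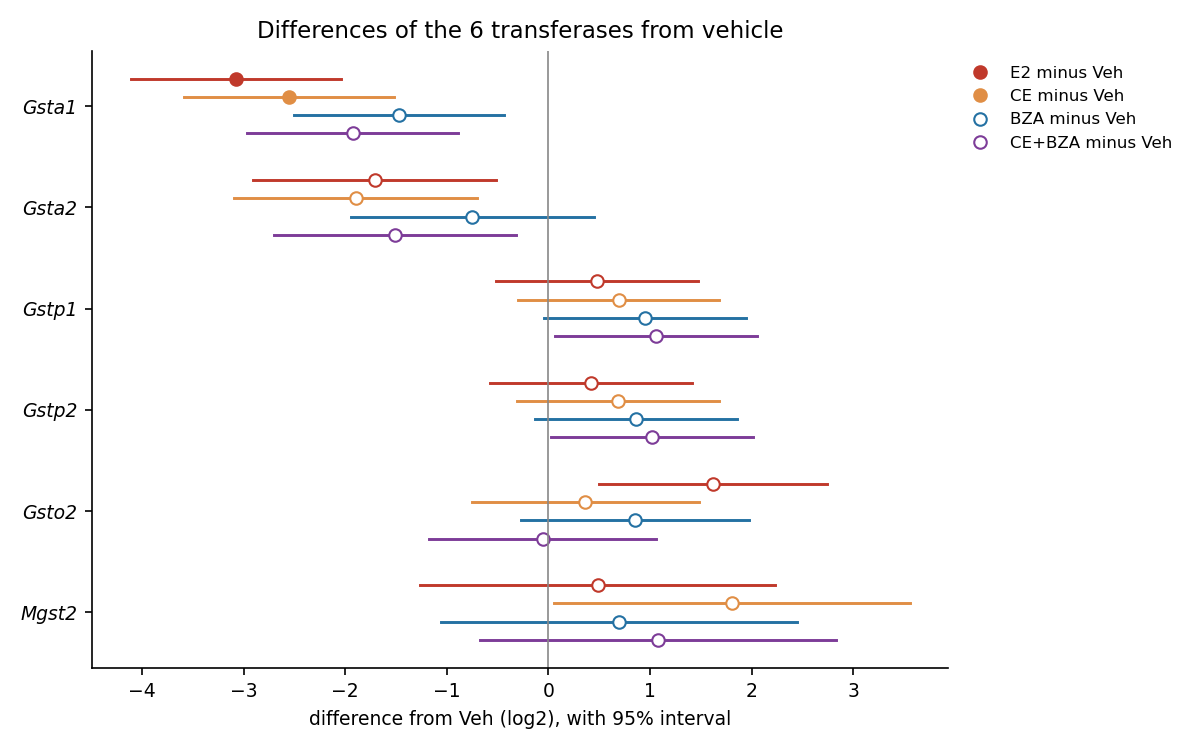
Differences of the 6 members from Veh on the log2 scale for the 4 treatments, with 95% intervals from limma. Filled points changed over 2-fold with an FDR under 0.05, which are E2 (−3.08) and CE (−2.56) for Gsta1, and open points did not.

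Over the 6 members and 4 treatments, 2 of 24 differences from Veh passed, both for Gsta1. Over 2-fold and at an unadjusted p under 0.05 by limma there were 11, of which 7 were lower levels of Gsta1 and Gsta2. With E2, 2 members were lower and 1 was higher by this rule, as were 8.61% and 6.52% of all genes. With CE there were 2 lower and 1 higher (8.45% and 10.1% of all genes), with BZA 1 lower and 0 higher (7.47% and 8.92%), and with CE+BZA 2 lower and 2 higher (9.55% and 11.6%). Members above all 3 Veh mice numbered 1 with E2, 3 with CE, 2 with BZA and 2 with CE+BZA, beside 10.3%, 13%, 10.5% and 14.8% of all genes. No member had all 12 treated mice above all Veh mice, which 1.26% of all genes had. The median difference of the 6 members was 0.45, 0.52, 0.77 and 0.48 with E2, CE, BZA and CE+BZA, beside 0.00, 0.06, 0.11 and 0.08 over all genes, so that the median of the members had the opposite sign to the alpha genes. The 6 members are not 6 separate measurements. Gsta1 and Gsta2 (Pearson 0.86) and Gstp1 and Gstp2 (0.99) are pairs of near-identical copies that moved together. The 2 higher members with CE+BZA were Gstp1 and Gstp2. Gsto2 and Mgst2 had 7 and 6 of 15 mice at the floor. These counts and medians are thus descriptions only.

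Among the 1499 genes with at most 1 mouse at their lowest value, those with a profile most like that of Gsta1 over the 15 mice were Aldh1a1, which oxidizes retinaldehyde (Pearson 0.89, Spearman 0.86), Gsta2, the prostaglandin F receptor gene Ptgfr (0.85 and 0.78), Mogat1, which makes diacylglycerol (0.85 and 0.70), and Cfd, the gene of adipsin (0.82 and 0.84). Mogat1 passed against Veh with CE (−2.76, FDR 0.0352 by limma) and Cfd with E2 (−5.62, FDR 0.0388 by limma). The most opposite profiles were those of Sgsm1 (−0.90), Cdh1, the gene of E-cadherin (−0.88), and Ly6e (−0.85). For deviations from the group means, none of these 5 most alike genes was among the top 5, and the coefficient was 0.24 for Aldh1a1, 0.72 for Gsta2, 0.74 for Ptgfr, 0.53 for Mogat1 and 0.22 for Cfd.

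Markers of other cell types moved with some members and against others. Adipocyte markers, 7 of 10 in the table, Adipoq, Plin1, Lep and Cfd among them, had mean log2 values of 0.67 to 0.82 in Veh, −0.46 to −0.42 in E2, −0.64 to −0.10 in CE, −0.31 to 4.04 in BZA and −0.05 to 0.22 in CE+BZA. Gsta1 had a Pearson correlation of 0.49 with this mean over 15 mice and of 0.62 over the 12 treated mice. Cfd is both in this mean and among the genes most like Gsta1. Without Cfd, a choice made after seeing the data, the mean of the other 6 markers was 0.14 to 0.26 in Veh, −0.36 to −0.17 in E2, −0.25 to −0.087 in CE, −0.22 to 3.94 in BZA and 0.00056 to 0.24 in CE+BZA. The CE+BZA and BZA mice overlapped with Veh. The correlation with Gsta1 was then 0.30 over 15 mice and 0.59 over the 12 treated mice. Other marker means also went with Gsta1 over the 12 treated mice. The correlation was 0.47 for cholangiocytes, 0.44 for exocrine pancreas and 0.35 for stellate cells and fibroblasts (0.10, 0.09 and 0.15 over 15 mice). BZA mouse 3 was far above the other mice in the adipocyte and pancreas means, and correlations without it are not given here. The 5 leukocyte markers in the table (of 13) ranged from −1.06 to 0.17 in Veh and from 0.63 to 2.32 in CE, and Mgst2 had a correlation of 0.60 with their mean. For the 6 erythroid markers (of 10), from −1.50 to 0.20 in Veh and from −0.06 to 1.71 in CE, the correlation with Mgst2 was 0.55. The alpha genes went the other way, with correlations over 15 mice of −0.53 (Gsta2) and −0.33 (Gsta1) with the leukocyte mean. With the erythroid mean they were −0.47 (Gsta2) and −0.43 (Gsta1). Over the 12 treated mice the correlations with the leukocyte mean were −0.47 (Gsta2), −0.08 (Gsta1) and 0.56 (Mgst2). With the erythroid mean the treated mice gave −0.26 (Gsta2), −0.13 (Gsta1) and 0.51 (Mgst2). For Gsta1 the opposite movement was thus weak among treated mice. Not all correlations of members with marker means are listed. The part of these cells in the values of Gsta1, Gsta2 and Mgst2 was not tested.

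**Figure D5:**
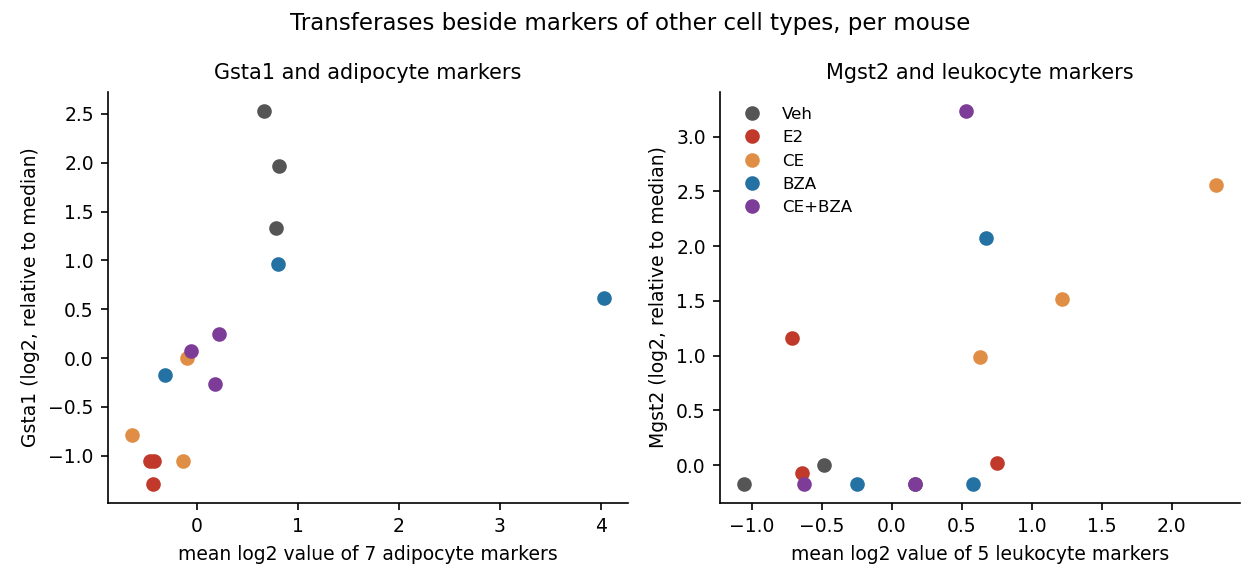
Gsta1 beside the mean log2 value of 7 adipocyte markers (left) and Mgst2 beside that of 5 leukocyte markers (right) in each of the 15 mice, coloured by group. The 3 Veh mice have adipocyte means of 0.67 to 0.82 and the highest Gsta1 values. BZA mouse 1 lies within that range of adipocyte means at 0.80, and BZA mouse 3 lies apart at 4.04.

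The genes that make and use glutathione were sparse in the table. Of 27 genes of glutathione synthesis and turnover, 4 had a row and 0 passed in any treatment. Cbs, which makes cystathionine on the way from methionine to cysteine, was 1.12 above Veh with CE (unadjusted p = 0.0246 and FDR 0.246 by limma), and no other of these genes moved over 2-fold at an unadjusted p under 0.05. Nat8, which acetylates cysteine conjugates into mercapturic acids, was 1.28 above Veh with CE+BZA, and Chac1, which breaks down glutathione, was 1.39 above Veh with CE. Of 26 glutathione peroxidases and other glutathione-dependent enzymes, 4 had a row and 0 passed. Ltc4s, the leukotriene C4 synthase of the same membrane family as Mgst2, was 2.04, 1.65 and 1.23 above Veh with E2, CE and BZA (FDR 0.144, 0.213 and 0.297 by limma). The plasma peroxidase gene Gpx3 was 1.05 above Veh with BZA (FDR 0.295 by limma), and Clic6 was 1.35 above Veh with BZA with 5 of 15 mice at the floor. Of 13 exporters of conjugates, Abcc4 alone had a row, at −1.37 with CE+BZA (FDR 0.240 by limma).

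Target genes of the factors known to act on transferases were also counted. Of 33 NRF2 targets and regulators, 3 had a row (Cbr1, Akr1b7 and Abcc4) and 0 passed. Cbr1, a carbonyl reductase, was 1.01 above Veh with E2 (FDR 0.318 by limma), and Akr1b7, an aldo-keto reductase, 1.30 above it (FDR 0.322 by limma). Of 28 CAR and PXR targets and regulators, 11 had a row, among them Aldh1a1, the gene most like Gsta1. Cyp3a44, a cytochrome P450 of female mouse liver, passed with E2 (4.90 above Veh, SE 0.65, FDR 0.00231 by limma) and no other gene of the list passed. Over 2-fold and at an unadjusted p under 0.05, 6 of the 11 were lower and 2 higher with E2 (8.61% and 6.52% of all genes), and 4 lower and 2 higher with CE (8.45% and 10.1%). With BZA 2 were lower and 0 higher (7.47% and 8.92%), and with CE+BZA 2 were lower and 1 higher (9.55% and 11.6%). Cyp2c55, a P450 of this list, had differences from Veh between −2.26 and −1.24 in the 4 treatments, and Cyp3a59 between −2.49 and −0.91. Of 11 AHR targets and regulators, 3 had a row (Ahrr, Cyp1a2 and Cyp1b1) and 0 passed, with differences from Veh between 0.68 and 1.44. Higher levels passed in 0.0786% of all genes with E2, 0.0393% with CE, 0% with BZA and 0.0786% with CE+BZA.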

How the data were processed

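Liver RNA of 3 mice per group was sequenced. The processing notes of the authors, as submitted, name CASAVA 1.8.2, TopHat2 0.5 and DESeq, with mm10 and hg19 as builds. By the study's methods, the authors trimmed single-end reads, mapped them with TopHat, counted them in StrandNGS and normalized the counts by the DESeq algorithm, while the labels describe reads from each end of the fragment and 2 samples sequenced per group. The deposited log2 values, relative to the median of each gene and given for 2545 genes, entered without a pseudocount or a filter. Mice tied at the lowest value of a gene were read as being at a floor, and the step that led to the ties is not stated. 0 columns of the table were left unmatched, and 0 among 105 pairs of mice were identical. The study drew a heat map from genes over 2-fold from Veh at a P under 0.05, and whether the same selection made the table is not stated. Since all its genes were over 2-fold from Veh in some treatment, an FDR over it is not one over a transcriptome.

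All 15 mice entered one limma 3.58.1 model with a mean for each group (R 4.3.3), and Benjamini-Hochberg adjustment covered all 2545 genes. The fit was tested on simulated data. Permutation tests, correlations and sequence comparisons used Python 3.11.15, scipy 1.17.1 and biopython 1.88, and plots matplotlib 3.10.9. Positions and transcripts were from GENCODE for GRCm38, and promoter windows from RefSeq (GRCm38.p6), which held all 6 members by symbol. The members, the gene lists and the tests were chosen with earlier results of these data known. All members were named, with the 5 genes most like and the 3 least like Gsta1 and up to 3 genes of each list with the smallest p against Veh. Replicate numbers recur between groups and were not used to pair the mice in the main fit. The correlation of deviations from the group means was between −0.05 and 0.10 in 13 same-numbered pairs, and above 0.1 in 0. Pairs with unlike numbers were not looked at, so these values do not settle whether the numbers mark a pairing. The alternatives were quantile normalization, centring of each mouse, leaving out genes with 2 or more mice at the floor, a model without shrinkage, robust shrinkage, only the 2 groups compared, the replicate block, other call rules, and leaving out each mouse. Intervals and p-values of limma measure the spread between mice, and the permutation p also takes in differences between the treatments pooled.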

Additional observations from a re-analysis of the deposited data

How the results depend on the processing

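The 3 calls for Gsta1 against Veh (E2, CE and the 4 treatments together) held under quantile normalization, centring, the floor filter, no shrinkage and robust shrinkage. With the replicate number as a block they were −2.55, −2.68 and −2.02 and did not pass (FDR 0.481, 0.328 and 0.473 by limma), no member passed with E2 or CE (0 and 0), E2 minus CE for Gsta1 turned to 0.14, and Mgst2 with E2 turned to −0.90. Fits of only the 2 groups compared gave −3.08 for E2 and −2.56 for CE with FDR 0.103 and 0.142 by limma, and 0 members passed. Leaving out each mouse, Gsta1 ranged from −3.38 to −2.78 with E2, from −2.86 to −2.26 with CE and from −2.56 to −1.96 over the 4 treatments, and the number of members that passed from 0 to 1 with E2 and with CE. At a fold change above 2 and an unadjusted p the number was 3 with E2, 3 with CE, 1 with BZA and 4 with CE+BZA, in place of 1, 1, 0 and 0. Leaving out each mouse, Gsto2 with CE ranged from −0.00496 (without CE mouse 3) to 0.57, Mgst2 with BZA from −0.058 (without BZA mouse 3) to 1.07, and Mgst2 with CE+BZA from −0.058 (without CE+BZA mouse 3) to 1.65. With Spearman, 3 of the 5 genes most like Gsta1 were shared, and 0 with deviations from the group means. The causes of the other losses were not tested. A difference that did not pass is not shown to be absent.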

Other observations

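Other conjugating enzymes and genes that differ between the sexes in mouse liver were also in the table. Of 49 sulfotransferases, glucuronosyltransferases, acetyltransferases and methyltransferases, 14 had a row and 0 passed against Veh in any treatment by limma. By a fold change above 2 and an unadjusted p under 0.05, 8 of the 14 were lower and 1 was higher with CE+BZA (9.55% and 11.6% of all genes), and 2 were lower and 3 higher with E2 (8.61% and 6.52%). With CE 2 were lower and 1 higher (8.45% and 10.1%), and with BZA 1 was lower and 2 were higher (7.47% and 8.92%). The sulfotransferase gene Sult5a1 was 1.53 to 2.44 above Veh in the 4 treatments, Sult2a5 was at −1.76 to −0.69 from it and Sult2a3 at −2.80 to −1.44.

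Of 26 female-biased liver genes, 18 had a row and 2 passed with E2, both higher, as did 0.0786% of all genes. Over 2-fold and at an unadjusted p under 0.05, 1 of the 18 was lower and 7 were higher with E2, 2 lower and 4 higher with CE, 3 lower and 0 higher with BZA, and 8 lower and 0 higher with CE+BZA, beside the same shares of all genes as above. The 2 genes that passed with E2 were Cyp3a44 and A1bg, which encodes a plasma glycoprotein (3.79 above Veh, SE 0.60, FDR 0.00754 by limma). A1bg was −2.24 from Veh with BZA and −2.13 with CE+BZA, neither of which passed (FDR 0.182 and 0.119 by limma). Cyp2b13, another P450 of female liver, was −2.71 from Veh with E2 (FDR 0.0863 by limma). The median difference of the 18 genes was 0.69 with E2, 0.72 with CE, −0.49 with BZA and −1.21 with CE+BZA, beside medians of all genes between 0.00 and 0.11. The female-biased list shares genes with the CAR and PXR list, Cyp3a44 and Cyp2b13 among them. It also shares Sult1e1, Sult2a1, Sult2a2 and Sult3a1 with the list of other conjugating enzymes. Counts from these lists are thus not separate results. Of 22 male-biased genes, 7 had a row and 0 passed. By the unadjusted rule 2 were lower and 0 higher with E2 (8.61% and 6.52% of all genes) and with CE (8.45% and 10.1%). With BZA 1 was lower and 1 higher (7.47% and 8.92%), and with CE+BZA 1 was lower and 2 were higher (9.55% and 11.6%). Among them Cyp4a12a was −3.45, −3.02, −0.22 and 0.08 from Veh with E2, CE, BZA and CE+BZA, with 4 of 15 mice at the floor. In the same order C8b was 0.005, 1.34, 1.58 and 2.20 from Veh, and Elovl3 was −0.95, −1.05, −1.35 and −1.50 from it.

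BZA mouse 1 had the highest means of cholangiocyte markers (2.76 over 4 markers) and of stellate cell and fibroblast markers (1.47 over 2). None of the 7 endothelial markers had a row.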
